A study of Mus musculus with 4 samples.

Results

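The immunoglobulin constant-region genes Ighm, Ighd, Igha, Ighg2b, Ighg2c, Ighg3, Igkc and Iglc1, with Jchain, were followed through single cells of mouse spinal cord. These 9 genes were taken by symbol from the 32285 genes of the deposited count tables. Each of the 4 groups was 1 library made from 2 pooled cords, so no spread between animals can be given and no test between groups was possible. P301S is a mutant human tau transgene, for which mice were negative (neg) or homozygous (hom). P301S neg mice with intact CD8 (CD8 WT) were taken at 30 weeks. P301S hom mice with intact CD8 were taken at 30 and at 33 weeks, and P301S hom mice labelled CD8 KO at 30 weeks. Values listed without names below follow this order. The promoter that drives the transgene, the strain and the kind of CD8 deletion are not given in the sources used here, and the labels call the material leukocytes and spinal cord cells. Mice had been perfused with saline before the cords were dissociated and depleted of myelin.

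Antibodies are built from heavy and light chains, each with a variable part joined to a constant part. A B cell first uses the mu constant gene, Ighm, and naive B cells make the delta chain, Ighd, from the same primary transcript by splicing. Class switching then deletes the DNA between the variable exon and a downstream constant gene, which places a gamma (Ighg), alpha (Igha) or epsilon gene next to it. Light chains are either kappa (Igkc) or lambda (the Iglc genes), and a B cell normally keeps 1 of the 2. Jchain encodes the small protein that links IgM and IgA subunits into polymers and is a hallmark of cells that secrete antibody. The central nervous system normally holds few such cells, and their known sites include the meninges and, outside them, the skull and vertebral marrow.

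In the GENCODE M21 annotation of GRCm38 the heavy-chain members lie on the minus strand of chromosome 12, from Igha (chr12:113254830-113260236) through Ighg2c, Ighg2b, Ighg3 and Ighd to Ighm (chr12:113418558-113422730). Igkc lies at chr6:70726435-70726966 on the plus strand, Iglc1 at chr16:19061618-19062071 and Jchain at chr5:88519809-88527891, the last 2 on the minus strand. Constant exons differ in how their chains end, which sets which chains bind the J chain and how the light chain bonds to the heavy chain. The last 63 coding bases of the secreted heavy chains and of the light chains, stop codon included, are given for that reason. Capitals mark a cysteine codon among the last 3 codons before the stop. All runs are 5′ to 3′ on the coding strand, read from the M21 transcripts.
Ighm: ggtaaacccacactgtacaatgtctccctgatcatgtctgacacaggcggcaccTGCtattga
Igha: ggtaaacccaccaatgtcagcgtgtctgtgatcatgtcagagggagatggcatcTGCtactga
Ighg2b: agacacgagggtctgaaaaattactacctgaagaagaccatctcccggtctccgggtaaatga
Ighg2c: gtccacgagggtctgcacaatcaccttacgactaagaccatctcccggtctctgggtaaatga
Ighg3: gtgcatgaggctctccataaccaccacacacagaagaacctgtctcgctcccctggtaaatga
Igkc: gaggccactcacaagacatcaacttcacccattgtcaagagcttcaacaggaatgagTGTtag
Iglc1: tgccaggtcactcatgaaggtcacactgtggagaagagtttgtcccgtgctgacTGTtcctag
The cysteine codon was the 2nd from the stop in Ighm and Igha, whose tails bond to the J chain, and none stood there in the 3 IgG genes. In the light chains it was the last codon of Igkc and the 2nd from the stop of Iglc1. Coding sequences of Ighg2b and Ighg2c shared 85.8% of aligned positions and those of Ighg2b and Ighg3 75.6%, so reads could in part be split between the gamma genes. Iglc2 and Iglc3 shared 96.2% of coding positions and Iglc1 and Iglc2 73.3%. For that reason lambda use is given below as the sum of Iglc1, Iglc2, Iglc3 and Iglc4.

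The libraries held 36331214 to 43531426 unique molecular identifiers (UMIs, 1 per captured transcript 3′ end) and 5640, 4692, 4788 and 5066 cells passed the filters, 20186 of 22644 barcodes. Of these, 44 barcodes occurred in 2 or more libraries, 35 of them in kept cells and 3 in B-lineage cells. Cd8a had 44, 67 and 62 UMIs in T- or NK-cell-like cells of the CD8 WT libraries and 1 UMI in those of the CD8 KO library. Endothelial-like cells of the CD8 KO library held another 1036 Cd8a UMIs, in 571 of 1348 cells, against 0 in those of the other libraries. That library is therefore called the library labelled CD8 KO. Sex differed between libraries: cells with female against male transcripts numbered 2043 and 1568 in P301S neg, 3723 and 0 in P301S hom at 30 weeks, 1686 and 1305 at 33 weeks, and 4 and 3089 where the label is CD8 KO. At 30 weeks, transgene or CD8 label and sex therefore cannot be told apart, except where female cells alone are compared.

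B-lineage cells were those with at least 2 UMIs of Cd79a and Cd79b together, the signalling chains of the B cell receptor, or at least 10 UMIs of Jchain. They numbered 375 of 5640 kept cells (6.65%, 95% interval 6.01 to 7.33) in P301S neg, 167 of 4692 (3.56%, 3.05 to 4.13) in P301S hom at 30 weeks, 176 of 4788 (3.68%, 3.16 to 4.25) at 33 weeks, and 105 of 5066 (2.07%, 1.70 to 2.50) in the library labelled CD8 KO. Intervals of shares are exact (Clopper-Pearson), those of levels (CPM, UMIs scaled by the total of the cells summed) exact Poisson, and they cover counting error only. The P301S neg library was the highest and the library labelled CD8 KO the lowest, with intervals that do not overlap the others, while P301S hom at 30 and 33 weeks overlapped. Blood- and marrow-type cells lay beside them: neutrophil-, monocyte- and erythroid-like cells together were 19.6%, 19.8%, 25.7% and 7.36% of kept cells. Their part in the shares was not tested.

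The gate was checked against clusters made without any immunoglobulin gene or Jchain. Of the 823 gated cells, 680 (82.6%) lay in B- or plasma-cell-like clusters. Another 55 lay in macrophage-like clusters, 46 of them without a Cd79a UMI, and 49 in mixed clusters. The 143 cells outside the B- or plasma-cell-like clusters, 52, 29, 27 and 35 by library, had a median of 10427 UMIs. Those inside had 2299.5, so a cell outside weighs more in the CPM sums below. Just inside the gate, 3 of the 92 cells with exactly 2 Cd79 UMIs lay in B- or plasma-cell-like clusters, and just outside it 1 of the 729 cells with exactly 1. No cell was near the Jchain cut: the lowest cell inside had 71 UMIs and the highest outside had 3. Macrophage markers in the gated cells summed to 1715, 4637, 2819 and 12010 CPM over the 9 fixed markers, of which 8, 8, 8 and 7 were detected. Mrc1 was at 0 in all 4 libraries and Pf4 also in the library labelled CD8 KO. Within the B- or plasma-cell-like clusters the same sum was 179, 164, 873 and 327 CPM.

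Gated cells fell into 4 ranges by genes other than the heavy and light chains. Antibody-secreting cells had at least 10 Jchain UMIs, precursor cells at least 2 UMIs of Vpreb1, Igll1, Dntt, Rag1 and Rag2 together (surrogate light chain and recombination genes), and Ms4a1-positive cells at least 1 UMI of Ms4a1, which encodes CD20. The rest were unstaged. Antibody-secreting cells numbered 7, 11, 8 and 1, precursor cells 62, 18, 15 and 5, Ms4a1-positive cells 135, 71, 80 and 32, and unstaged cells 171, 67, 73 and 67. Of B-lineage cells, 16.5% (12.9 to 20.7), 10.8% (6.51 to 16.5), 8.52% (4.85 to 13.7) and 4.76% (1.56 to 10.8) were precursor cells. Antibody-secreting cells were 1.87% (0.754 to 3.81), 6.59% (3.33 to 11.5), 4.55% (1.98 to 8.76) and 0.952% (0.0241 to 5.19).

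Isotype use in the 27 antibody-secreting cells differed from library to library. A cell was given the heavy-chain gene with at least 3 UMIs and over 50% of its heavy-chain UMIs. Ighm led in 12 cells, Igha in 9, Ighg2b in 5 and Ighg3 in 1, so 15 of 27 (55.6%, 35.3 to 74.5) were class-switched. P301S neg had 6 Ighm cells and 1 Igha cell, a switched share of 1 in 7 (14.3%, 0.361 to 57.9). P301S hom at 30 weeks had 7 Igha, 2 Ighg2b and 2 Ighm cells, 9 of 11 switched (81.8%, 48.2 to 97.7). At 33 weeks there were 4 Ighm, 2 Ighg2b, 1 Ighg3 and 1 Igha cells, 4 of 8 switched (50%, 15.7 to 84.3). The 1 such cell of the library labelled CD8 KO used Ighg2b. The intervals of P301S neg and P301S hom at 30 weeks overlap between 48.2% and 57.9%, and that of 33 weeks spans most of both. Doublet calling removed 3 further Jchain-high cells, all of them Ighm: 1 in P301S neg and 2 in the library labelled CD8 KO. With them, switched cells were 1 of 8 (12.5%) and 1 of 3 (33.3%) there.

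Each antibody-secreting cell was committed to 1 heavy chain. The leading gene took 96.7% to 100% of the cell's heavy-chain UMIs, and a second heavy-chain gene was seen in 10 cells, with 10 or more UMIs in 6 of them and 63 at most. Ighd, the IgD chain of naive B cells, had 0 UMIs in all 27. Ighg2c had 1 UMI in the 20186 kept cells, and Ighe, the IgE chain, had 0.

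The 7 Igha cells of P301S hom at 30 weeks held between 2035 and 7328 Igha UMIs. The 1 Igha cell of P301S neg held 6344 and that of 33 weeks 4495, inside that range. Ighm in the 6 Ighm cells of P301S neg was 1803, 2260, 2705, 4814, 4849 and 6539 UMIs. The 2 Ighm cells of P301S hom at 30 weeks held 3072 and 3309 UMIs, and the 4 at 33 weeks 743, 1942, 2466 and 2686. The range of P301S neg overlaps both other sets, while all 4 cells of 33 weeks lay below the 2 of P301S hom at 30 weeks. These counts are not scaled to depth. In the same order the 4 cells held 14610, 12701, 24117 and 13116 UMIs of all genes, and the 2 cells 22096 and 22539. A difference in Ighm beyond depth is therefore not shown. Ighg2b reached 3905 and 4417 UMIs in P301S hom at 30 weeks, 1819 and 6564 at 33 weeks and 5530 in the cell labelled CD8 KO. Ighg3 was carried by a single cell of 33 weeks, with 1828 UMIs.

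All 27 cells used kappa. Igkc had a median of 10290 UMIs per cell (2664 to 27776) and exceeded the leading heavy chain in 27 of 27 cells, with a median of 3.15 Igkc UMIs (1.29 to 11.1) per heavy-chain UMI of any heavy-chain gene. These are counts of 3′ ends and are not divided by transcript length. The lowest ratio was in an Igha cell of P301S hom at 30 weeks (2664 Igkc and 2035 Igha UMIs). An Ighm cell of 33 weeks had the highest, with 8359 Igkc and 743 Ighm UMIs. Immunoglobulin genes and Jchain took a median of 73.1% of a cell's UMIs (35.6 to 91.8).

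Jchain ran from 71 to 3080 UMIs, with a median of 972. By isotype its median was 956 UMIs in Ighm cells, 1679 in Igha cells and 532.5 in the 6 IgG cells. As a share of the cell's UMIs, Jchain was 4.44% (0.504 to 8.74) in Ighm cells, 6.92% (2.88 to 13.1) in Igha cells, 2.85% (0.752 to 4.47) in Ighg2b cells and 1.24% in the Ighg3 cell. The IgG cells, whose heavy chains end without the cysteine codon printed above, carried 152 to 1771 Jchain UMIs. Ranges of the 3 isotypes overlap, and the Igha cells come mostly from 1 library, P301S hom at 30 weeks. The lowest Jchain cell, with 71 UMIs, was an Ighm cell of P301S neg.

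**Figure D1:**
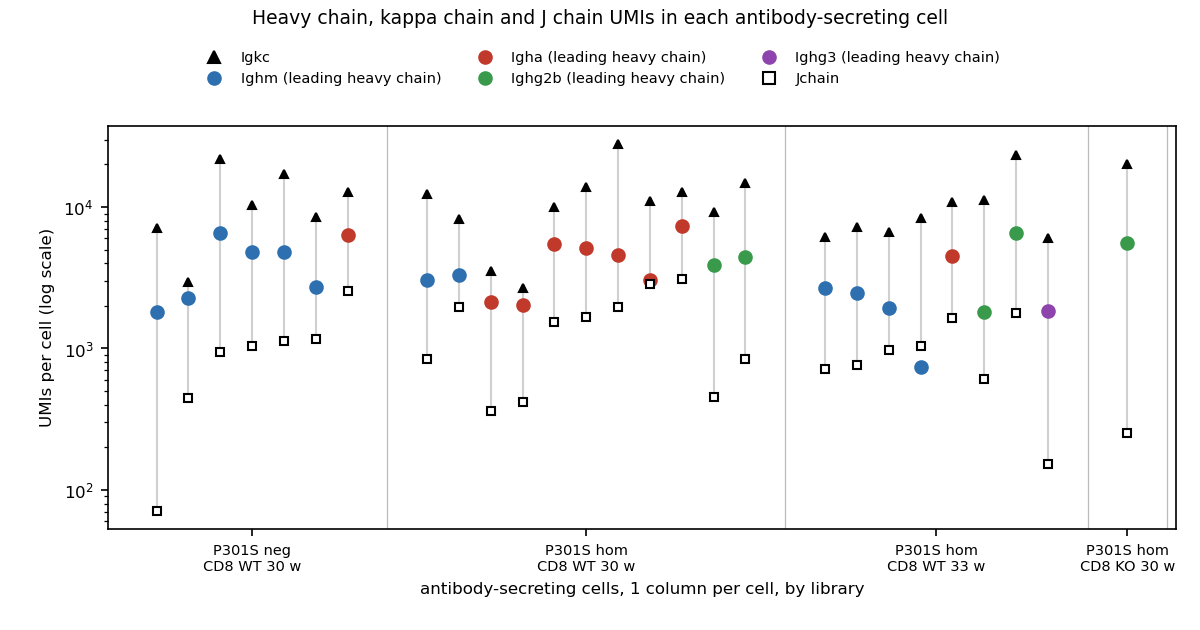
UMIs of Igkc, of the leading heavy-chain gene and of Jchain in each of the 27 antibody-secreting cells, on a log axis, grouped by library and coloured by leading heavy chain. Igkc stands highest in every cell, Igha cells cluster in P301S hom at 30 weeks (7 of 11), and Jchain runs from 71 to 3080 UMIs.

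Other genes of secreting cells were read in the 27 cells of the Jchain gate. Mzb1, a chaperone of the mu chain, and Xbp1, a factor of the secretory programme, were seen in 27 of 27 cells, the plasma cell surface gene Sdc1 in 25, Tnfrsf17 (BCMA) in 17 and Prdm1 (Blimp-1) in 15. These cells were deep, at a median of 22105 UMIs. Mzb1 also had 682 UMIs in the 368 other B-lineage cells of P301S neg, so its detection alone does not set secreting cells apart. Ms4a1 was seen in 6. Female transcripts were found in 6 of the 7 cells of P301S neg, in 11 of 11 of P301S hom at 30 weeks and in 7 of 8 at 33 weeks, although 33 weeks and P301S neg hold male cells as well. The male cell of P301S neg used Ighm, and the other 2 cells showed transcripts of neither sex.

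Outside the antibody-secreting range, B-lineage cells used Ighm. Of 796 such cells, 662 had a heavy-chain call: 644 Ighm, 15 Ighd and 3 switched. The 3 switched cells were all Ms4a1-positive cells of 33 weeks. Among them, 1 had 3 Igha UMIs and male transcripts, 1 had 5 Ighg1 UMIs and female transcripts, and 1 had 17 Ighg3 UMIs and female transcripts. They were 2.11% (0.438 to 6.05) of the 142 called cells there. In the other libraries 0 of 324, 0 of 125 and 0 of 71 called cells were switched, which allows a share of up to 0.926%, 2.40% and 4.23%. The 33-week share lies within the limits for the library labelled CD8 KO and for P301S hom at 30 weeks. It lies above that for P301S neg, but it rests on 3 cells and its interval reaches below that limit too. Jchain summed to 4 UMIs over all 796 cells.

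Ighm was present in cells of every range. In Ms4a1-positive cells its level was 4661 CPM (4460 to 4868), 3533 (3280 to 3800), 3770 (3507 to 4048) and 3646 (3296 to 4024). P301S neg was higher than the other 3 libraries, which overlapped each other. Precursor cells held 2811, 2613, 2968 and 8126 CPM, where the last value rests on 5 cells. Unstaged cells held 3088, 1171, 1636 and 1024 CPM. It is in the unstaged cells that P301S neg stood furthest above the rest, and 50 of the 55 gated macrophage-like cells fell there.

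Ighd was concentrated in Ms4a1-positive cells. Its level there was 332 CPM (280 to 391), 397 (315 to 493), 604 (501 to 721) and 341 (240 to 470), with 33 weeks the highest and separate from the other libraries by its interval. Precursor cells had 20.3, 19.1, 69.0 and 0 CPM, the last from 0 UMIs in 5 cells. Cells with an Ighd UMI numbered 103, 52, 64 and 20, and 102, 48, 63 and 19 of them also had Ighm. Unswitched mature B cells are known to make both chains. Thinned to 1000 UMIs per cell, 28.8%, 29.6%, 41.8% and 25% of Ms4a1-positive cells had an Ighd UMI, against 45.9%, 53.5%, 56.2% and 40.6% unthinned.

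Igkc was higher in Ms4a1-positive than in precursor cells of each library, but in the library labelled CD8 KO the intervals overlap. Precursor cells held 1177, 2918, 2609 and 8590 CPM and Ms4a1-positive cells 11445, 11231, 13785 and 9898 CPM. The 8590 rests on 5 cells (7067 to 10345). Unstaged cells held 3620, 1197, 2751 and 1387 CPM. In endothelial-like cells, which should lack the gene, 7.20%, 16.6%, 5.22% and 2.54% of cells had an Igkc UMI at a median depth of 5548, 4753, 3890 and 4594 UMIs. In Ms4a1-positive cells 85.2%, 97.2%, 100% and 90.6% had one, at 2496, 2115, 1949 and 2262 UMIs.

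**Figure D2:**
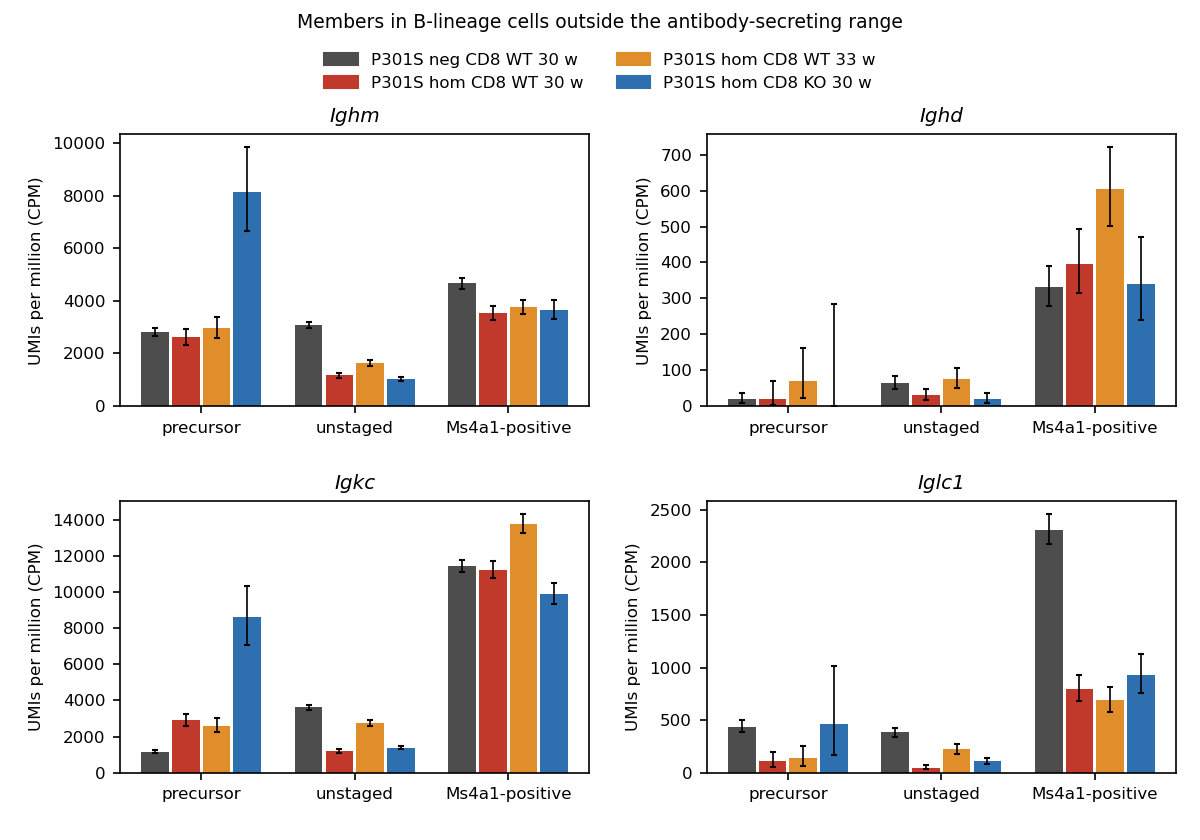
CPM of Ighm, Ighd, Igkc and Iglc1 in precursor, unstaged and Ms4a1-positive cells of the 4 libraries, with exact Poisson 95% intervals (counting error only). Ighd and Igkc are highest in Ms4a1-positive cells, and Iglc1 in these cells is 2311 CPM in P301S neg and 688 to 930 CPM in the other libraries.

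Lambda use was higher in P301S neg than in the P301S hom CD8 WT libraries. A cell was called kappa or lambda by the same rule as for heavy chains. Outside the antibody-secreting range lambda led in 77 of 304 called cells (25.3%, 20.5 to 30.6) in P301S neg, 10 of 129 (7.75%, 3.78 to 13.8) in P301S hom at 30 weeks, 16 of 141 (11.3%, 6.63 to 17.8) at 33 weeks and 10 of 68 (14.7%, 7.28 to 25.4) in the library labelled CD8 KO. The interval of P301S neg does not overlap those of P301S hom CD8 WT at 30 or 33 weeks, and overlaps that of the library labelled CD8 KO. Among Ms4a1-positive cells alone the counts were 34 of 135 (25.2%), 3 of 71 (4.23%), 6 of 79 (7.59%) and 5 of 32 (15.6%). Among cells with female transcripts, lambda led in 30 of 101 (29.7%, 21.0 to 39.6) for P301S neg, against 7 of 104 (6.73%, 2.75 to 13.4) for P301S hom at 30 weeks. At 33 weeks female cells gave 6 of 61 (9.84%, 3.70 to 20.2) and male cells 4 of 28 (14.3%, 4.03 to 32.7). Male cells of P301S neg gave 19 of 96 (19.8%, 12.4 to 29.2) and those of the library labelled CD8 KO 7 of 42 (16.7%, 6.97 to 31.4). By interval, P301S neg was thus apart from the P301S hom CD8 WT libraries in female cells, while male cells overlapped. The 113 lambda cells divided into 54 led by Iglc1, 37 by Iglc2 and 22 by Iglc3. They had a median of 25 lambda and 0 Igkc UMIs, and kappa cells a median of 25 Igkc and 2 lambda UMIs. The 2 cords of a library are 2 animals at most, so a difference between individual mice and one between groups cannot be told apart.

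**Figure D3:**
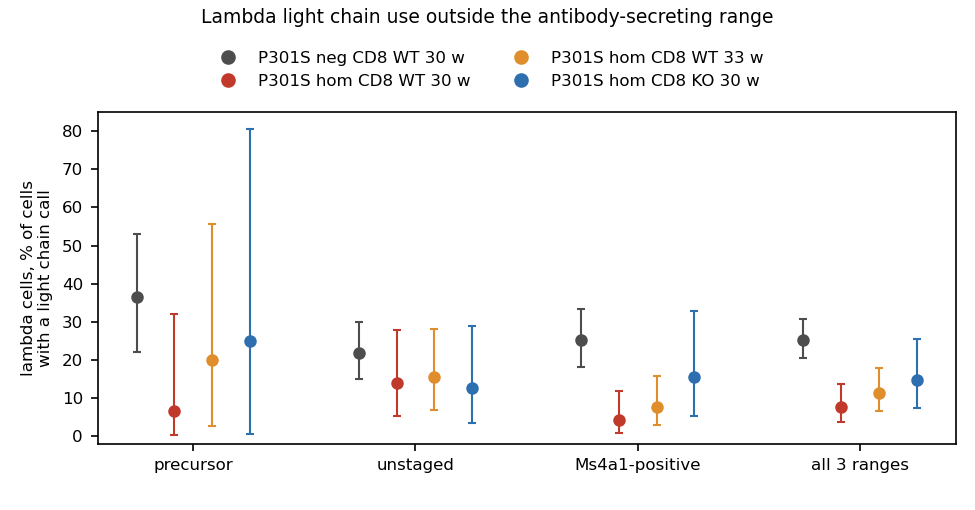
Share of cells with a light-chain call led by lambda (percent), outside the antibody-secreting range, by library, with exact binomial 95% intervals. P301S neg is at 25.3%, the 3 P301S hom libraries are at 7.75%, 11.3% and 14.7%.

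Iglc1 itself was also highest in P301S neg. Its level in Ms4a1-positive cells was 2311 CPM (2170 to 2458), 799 (681 to 931), 688 (578 to 812) and 930 (757 to 1130). P301S neg stood alone, and the intervals of the other 3 overlapped.

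The first comparison sets P301S hom against P301S neg, both CD8 WT at 30 weeks, by the ratio of CPM over all B-lineage cells. Igha was 26384 against 3349 CPM, 7.88-fold higher (7.67 to 8.10). Ighg2b was 7418 against 2.64 CPM, the latter from 5 UMIs. Igkc was 2.43-fold and Jchain 3.66-fold higher. Ighm was 2.13-fold lower (2.08 to 2.18) and Iglc1 2.83-fold lower (2.52 to 3.18), and Ighd lay within 1.5-fold. At 1.5-fold, 4 of the 7 members with enough UMIs (all but Ighg2c and Ighg3, both at 0) were higher, against 6.42% of the 9308 genes tested, and 2 were lower, against 32.3%. Most of this came from 18 antibody-secreting cells. Without them Igha, Ighg2b and Jchain also had too few UMIs, and 0 of 4 members were higher (8.99% of 9189 genes) and 2 were lower (23.5%): Ighm at 1892 against 3403 CPM, 1.80-fold lower (1.70 to 1.90), and Iglc1 at 231 against 882 CPM, 3.81-fold lower (3.29 to 4.44). Igkc then had a ratio of 0.77 and Ighd of 0.96. These CPM also count the UMIs of gated cells outside the B- or plasma-cell-like clusters, 52 in P301S neg and 29 in P301S hom. Their part in the ratios was not tested. Among Ms4a1-positive cells alone the log2 ratio was -0.40 for Ighm, inside the 1.5-fold limit, and -1.53 for Iglc1. The median log2 ratio of the 4 members was -0.62, that of all genes -0.17.

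Lists of B cell genes in the same cells, antibody-secreting ones left out, are read against the 23.5% of all genes that were lower and the 8.99% that were higher. Of 10 receptor partners 3 were lower, among them Cd79b and Blk, and 0 higher, which is near the share over all genes. Cd79b had 1068 against 1711 CPM. Of 8 B-lineage transcription factors 6 were lower, among them Ebf1, which commits cells to the B lineage, at 1156 against 2155 CPM. Of 10 precursor genes 5 were lower, such as the surrogate light chain Igll1 (96.8 against 215 CPM). Of 10 mature B cell genes, the antigen presentation genes Cd74 (1.54-fold) and H2-Aa (1.71-fold) were higher and the complement receptor Cr2 lower. Of 5 Fc receptor and transport genes 3 were higher, led by Fcer1g, the shared gamma chain, at 1084 against 251 CPM. Macrophage markers summed to 5944 against 1869 CPM in these cells. In gated cells of the B- or plasma-cell-like clusters they summed to 164 against 179 CPM. The list values divide by the UMIs of all these cells, also those outside such clusters. The part of the cells outside in the lists was not tested.

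The second comparison sets the library labelled CD8 KO against P301S hom CD8 WT at 30 weeks. Over all B-lineage cells 0 of 7 members were higher (26.1% of 7631 genes) and 4 lower (10.2%). Ighm was 1502 against 7149 CPM, Igkc 30943 against 114395 and Jchain 351 against 14164 CPM. Igha had 0 UMIs, at least 6294-fold lower when set to a floor of 3 counts. In the main that sets 7 Igha cells against a library with 1 antibody-secreting cell, so the bound says little about cells. Ighg2b had a ratio of 1.04, which in the main compares 1 cell with 2. Without antibody-secreting cells 1 of 4 members was lower (16% of 7488 genes) and 0 higher (19.5%): Ighd at 70.3 against 114 CPM, 1.62-fold lower (1.14 to 2.33). Ighm had a ratio of 0.83 (0.77 to 0.90), Igkc of 0.77 and Iglc1 of 1.08. Among Ms4a1-positive cells alone Ighd was inside the 1.5-fold limit too, at a log2 ratio of -0.22. The median log2 ratio of the 4 was -0.32, that of all genes -0.04. Keeping the doublet calls would add 2428 and 1164 Ighm UMIs to the library labelled CD8 KO, from 2 cells.

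In those cells 16% of all genes were lower and 19.5% higher. Of 10 receptor partners 3 were lower, among them Cd79a and Btk. Of 8 precursor genes 6 were lower, with Vpreb1 at 29.3 against 123 CPM, and 1, Erg, was higher. Also lower were 5 of 8 transcription factors and 3 of 9 mature B cell genes. Of the Fc receptor genes 3 of 5 were higher, such as Fcgr3 (441 against 154 CPM). The macrophage marker sum was 12570 against 5944 CPM. Within the B- or plasma-cell-like clusters, where that sum was 327 and 164 CPM, the log2 ratio of Iglc1 was 0.69 and that of Ighg2b, which rests on 1 cell of the library labelled CD8 KO, 1.07.

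The third comparison sets 33 against 30 weeks in P301S hom CD8 WT. The 30-week library is the same as in both comparisons above. Over all B-lineage cells, 3 of 8 members were higher (11.6% of 7489 genes) and 2 lower (9.88%). Ighd was 187 against 88.5 CPM, 2.11-fold higher (1.63 to 2.74), and Ighm 1.58-fold. Ighg3 was at least 823-fold higher against a floor of 3 counts, nearly all of it from 1 cell. Igha was 4.90-fold and Jchain 1.56-fold lower, where Igha in the main compares 1 cell with 7. Without antibody-secreting cells 3 of 4 members were higher (9.55% of 7248 genes) and 0 lower (12.4%): Ighd at 230 against 114 CPM, 2.02-fold (1.56 to 2.62), Igkc 1.60-fold (1.53 to 1.68) and Iglc1 1.53-fold (1.26 to 1.85). Ighm had a ratio of 1.27. Of the cells summed, 27 of 168 at 33 weeks and 29 of 156 at 30 weeks lay outside the B- or plasma-cell-like clusters. Their part in the ratios was not tested. Among Ms4a1-positive cells alone the log2 ratio was 0.60 for Ighd, past the 1.5-fold limit, 0.30 for Igkc and -0.22 for Iglc1, which turned. The median log2 ratio of the 4 was 0.65, that of all genes -0.00034.

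Of the mature B cell genes, 4 of 9 were higher at 33 weeks and 0 lower, against 9.55% and 12.4% of all genes, among them Fcer2a (CD23), Bank1 and the IgM receptor Fcmr. Of the precursor genes Rag2, Dntt and Il7r were higher, and 0 of 8 transcription factors passed 1.5-fold either way. Macrophage markers in these cells were lower at 33 weeks (3448 against 5944 CPM), as was Fcer1g, and their part was not tested.

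Levels of genes of the fixed lists across the ranges are given as description. Igll1 helps to define the precursor range, so its contrast was largely set by that rule. Cd79a is part of the B-lineage gate itself. Igll1 had 816 CPM in precursor cells and 0 in Ms4a1-positive and antibody-secreting cells. Cd79a, which carries surface immunoglobulin, had 3349 CPM in Ms4a1-positive, 1804 in precursor and 440 in antibody-secreting cells. Cd74 went from 386 CPM in precursor to 15607 in Ms4a1-positive cells and 2555 in antibody-secreting cells. Immunoglobulin genes and Jchain took a median of 73.1% of the UMIs of antibody-secreting cells, which lowers the CPM of all other genes there. A loss of Cd79a or Cd74 per cell is therefore not shown. Mzb1 was highest in antibody-secreting cells, at 1687 CPM against 692 in precursor and 350 in Ms4a1-positive cells. Pigr, which carries polymeric IgA and IgM across epithelia, had 0 UMIs in antibody-secreting cells.

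Levels of the members were compared with 5453 other genes over the 9 combinations of range and library with at least 20 cells, by Pearson correlation of log2 of CPM plus 10. The genes most like Ighm were Cd79b (r = 0.987), Siglecg (0.981) and Gpbp1 (0.976). Those most like Ighd were Stk17b (0.992), Fcmr (0.987) and Fcer2a (0.986), and those most like Igkc were Ly6e (0.987), Il2rg (0.980) and Fcmr (0.979). Antibody-secreting cells do not enter at that size. Over 15 combinations with at least 5 cells, Jchain was most like Pdia4 (0.982), Cacna1s (0.976) and Prg2 (0.976), and Igha like Pdia4 (0.971) and Cacna1s (0.969). Jchain itself sets the antibody-secreting range, so genes high in secreting cells follow it by construction. Cd79b is part of the B-lineage gate. The combinations share libraries and depth, and the values describe them only.

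Other cells carried immunoglobulin UMIs at lower levels, and Ighm behaved differently from Igkc. In glial, vascular and stromal cells Igkc was 9.69, 36.7, 10.3 and 3.72 CPM, which follows the order of Igkc in the libraries' totals at its ends (P301S hom at 30 weeks highest with 130454 UMIs, the library labelled CD8 KO lowest with 22320). Ighm there was 6.36, 3.35, 3.01 and 3.98 CPM. In monocyte-like cells Ighm was 333, 262, 338 and 252 CPM. T- or NK-cell-like cells had 164, 113, 145 and 152 CPM, macrophage-like cells 191, 68.4, 81.8 and 76.7, and neutrophil-like cells 66.6, 48.7, 47.2 and 56.7. Igkc in the macrophage-like cells was only 12.6, 26.0, 10.6 and 4.27 CPM. Thinned to 1000 UMIs, 15.1%, 7.82%, 8.33% and 8.23% of macrophage-like cells had an Ighm UMI, against 0.67%, 0.40%, 0.23% and 0.48% of glial, vascular and stromal cells; unthinned the shares were 47.6%, 40.5%, 37.7% and 41.6% against 4.31%, 1.91%, 1.45% and 2.24%.

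**Figure D4:**
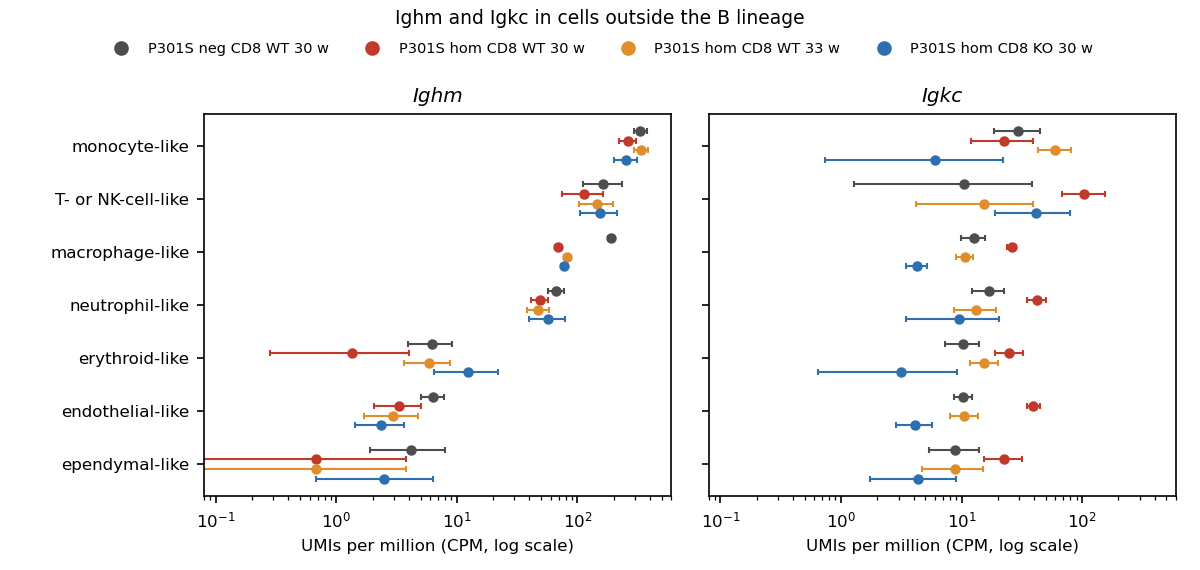
CPM of Ighm and Igkc (log axis) in 7 classes of cells outside the B lineage, by library. Ighm is at 252 to 338 CPM in monocyte-like cells and 68.4 to 191 CPM in macrophage-like cells, and at 2.35 to 6.29 CPM in endothelial-like cells.

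The ratio of Ighm to Igkc differed between the classes. Per 100 Igkc UMIs of the same cells, B-lineage cells held 32.4, 6.25, 11.4 and 4.85 Ighm UMIs, and 69.7, 50.7, 40.2 and 54.7 without antibody-secreting cells. Macrophage-like cells held 1518, 263, 771 and 1796, and monocyte-like cells 1127, 1154, 565 and 4150. For Ighm the macrophage- and monocyte-like ratios lay above those of B-lineage cells in each library, and their intervals do not overlap. The same held for neutrophil-like cells (398, 116, 358 and 600) and T- or NK-cell-like cells (1550, 108, 950 and 367). Glial, vascular and stromal cells held 65.6, 9.12, 29.1 and 107, and erythroid-like cells 60, 5.45, 37.9 and 400. Both exceeded all B-lineage cells, with separate intervals, except in P301S hom at 30 weeks. Both lay below B-lineage cells without antibody-secreting cells, except in the library labelled CD8 KO. For Igha the libraries differed. P301S neg had 7.12 Igha UMIs per 100 Igkc in B-lineage cells, 20.2 (13.5 to 29.6) in glial, vascular and stromal cells and 6.41 (2.02 to 15.6) in macrophage-like cells. At 33 weeks the values were 5.41, 11.4 (5.02 to 22.7) and 10.6 (5.91 to 17.8). P301S hom at 30 weeks had 23.1 in B-lineage cells, 23.4 (18 to 30.1) in glial, vascular and stromal cells and 31.2 (26.1 to 37.1) in macrophage-like cells. Jchain was 12.4, 9.12 (6.05 to 13.3) and 15.7 (12.3 to 19.7) per 100 Igkc in the same 3 sets of cells of P301S hom at 30 weeks. Gene counts do not tell full mu chain transcripts from transcripts of the unrearranged mu constant region, which T cells are known to make, or secreted from membrane forms.

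Ighm in macrophage-like cells was 2.79-fold lower (2.58 to 3.01) in P301S hom than in P301S neg at 30 weeks. There 36% of 11770 genes were at least 1.5-fold lower and 11.7% higher. Ighm differed between clusters of these cells. Cluster 13, with the homeostatic microglia genes P2ry12, Csf1r and Tmem119 among its leading genes, had 194, 134, 155 and 156 CPM, and cluster 23, led by C1qa and Ccl3, 119, 116, 106 and 106 CPM. Cluster 24, led by Ccl3 and Spp1, had 73.4, 91.3 and 74.3 CPM in the P301S hom libraries, and cluster 27, led by Spp1 and Gpnmb, 26.2, 26.2 and 26.5 CPM. Cluster 13 held 72.8% of the macrophage-like cells of P301S neg and 9.44%, 14.2% and 12% of those of the other libraries, and cluster 27 held 0.0756%, 26.1%, 26.0% and 17.7%. Within cluster 13 the ratio of P301S hom to P301S neg was 0.69 (0.57 to 0.83). It was 0.97 (0.75 to 1.28) within cluster 23 and 0.41 (0.31 to 0.55) within cluster 11. The cells of cluster 11 had a median of 1003 UMIs in P301S neg and 4484 in P301S hom, so that ratio sets shallow cells against deeper ones. Female cells alone gave 0.31 (0.29 to 0.35). For the library labelled CD8 KO against CD8 WT the ratio was 1.12 (5.36% of genes higher and 2.5% lower by 1.5-fold) and for 33 against 30 weeks 1.20 (3.12% and 3.07%), both within 1.5-fold.

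**Figure D5:**
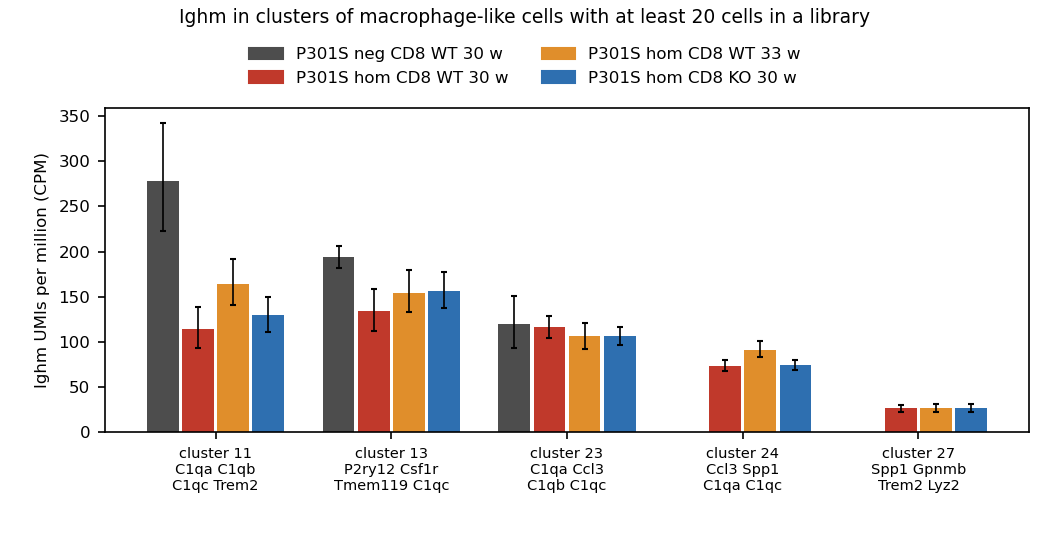
Ighm (CPM) in 5 clusters of macrophage-like cells by library, with exact Poisson 95% intervals. Ighm is at 114 to 278 CPM in cluster 11 and 134 to 194 CPM in cluster 13, whose order differs between libraries, and is lowest in cluster 27 (26.2 to 26.5 CPM).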

How the data were processed

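Single cells of mouse spinal cord were sequenced from transcript 3′ ends in 4 libraries of 2 pooled cords. The authors deposited unnormalized UMI counts for each gene in each cell barcode, made with Cell Ranger 6.0.1 per the file headers. The genome was mm10 per the submitters' processing notes, and the annotation used upstream is not given in the sources used here. A cell needed 500 UMIs, 200 genes and a mitochondrial share of 15% or less. Scrublet (scanpy 1.11.5, expected doublets 6%) called 98, 59, 42 and 69 doublets, which were removed. Clusters (2000 variable genes without 393 immunoglobulin symbols, 30 principal components, 15 neighbours, Leiden at resolution 1.0, igraph 0.11.9) were named from fixed markers: at least 3 detected and at least 1 among the 10 leading genes. Names rest on RNA alone and were rebuilt here.

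UMIs were summed per library and range and scaled to CPM. Ratios used genes whose UMIs in the compared libraries came to 20 or more, with exact conditional binomial 95% intervals, and 1.5-fold as the limit for higher or lower. With 1 library per group no test was made and no p-value is given. A count of 0 was set to 3 counts. Scripts were tested on simulated data. Background in other classes left out cells with 5 or more UMIs of B cell marker genes, Cd79a, Cd79b and Ms4a1 included. The text names all 9 members, the other constant genes, up to 4 of each list's genes with the most UMIs and those past 1.5-fold, and the 3 genes most like a member, except some list genes that are not reported here. Members and lists were chosen with earlier results of these data known. Scripts ran under Python 3.11.15 with scipy 1.17.1, numpy 2.4.6, scikit-learn 1.9.0, pandas 2.3.3, Biopython 1.88 and matplotlib 3.10.9. Alternatives covered filters, gates, calls, depth, sex, scaling and ranges of cells. Those without antibody-secreting cells, by macrophage-like cluster, by sex for light chains and with groups of at least 5 cells were chosen after seeing the data.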

Additional observations from a re-analysis of the deposited data

How the results depend on the processing

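No paired analysis was possible because each group is 1 library, and no library could be left out of a comparison. B-lineage shares, in the order P301S neg, P301S hom at 30 weeks, 33 weeks and CD8 KO, became 5.82%, 3.01%, 3.09% and 1.38% with at least 5 Cd79 UMIs, and 5.73%, 2.94%, 3.11% and 1.38% for gated cells inside B- or plasma-cell-like clusters. They became 11.2%, 8.37%, 8.25% and 3.55% of cells outside myeloid and erythroid clusters. Without the filter on cells the share at 33 weeks was 3.11%. Highest and lowest library stayed the same in these settings. The switched share of antibody-secreting cells was 0 of 1 for male cells of P301S neg, and in CD8 KO went from 1 of 1 to 1 of 3 cells (33.3%) with doublet calls kept, inside the wide interval of 1 cell. No share of switched cells outside that range moved under the 34 alternatives. Thinned to 1000 UMIs, Ighm in macrophage-like cells was 165, 82.9, 91.1 and 89.9 CPM. Igkc thinned was 31.5 CPM in macrophage-like cells of P301S hom at 30 weeks and 16.3 CPM at 33 weeks, and in glial, vascular and stromal cells 8.08 CPM in P301S neg and 57.1 CPM in P301S hom at 30 weeks. With B-rich cells kept, Ighm in glial, vascular and stromal cells was 13.3 CPM in P301S neg, 5.44 in P301S hom at 30 weeks and 5.91 in CD8 KO. Igkc was then 23.9 CPM there in P301S neg and 6.85 in CD8 KO, and in macrophage-like cells 31.4 CPM in P301S hom at 30 weeks and 8.52 in CD8 KO. For P301S hom over neg, members higher and lower by 1.5-fold numbered 2 and 1 within antibody-secreting cells, 1 and 1 within precursor cells, 0 and 1 within Ms4a1-positive cells, and 0 were higher without antibody-secreting cells. For CD8 KO over WT, 2 were higher in B- or plasma-cell-like clusters, 1 within antibody-secreting cells and 2, with 0 lower, within precursor cells. In that comparison 0 were lower within Ms4a1-positive cells and 1 without antibody-secreting cells. For 33 over 30 weeks, 1 was lower within antibody-secreting cells, 0 higher and 0 lower within precursor cells, 1 higher and 0 lower within Ms4a1-positive cells, 0 lower without antibody-secreting cells and 1 lower in female cells. Log2 ratios past 1.5-fold over all B-lineage cells that turned were those of Igkc for P301S hom over neg (-0.027 within Ms4a1-positive cells, -0.39 without antibody-secreting cells), of Igkc for CD8 KO over WT (0.27 within antibody-secreting and 1.56 within precursor cells) and of Ighm for CD8 KO over WT (1.64 within precursor and 0.046 within Ms4a1-positive cells). Ratios inside 1.5-fold also turned in places, such as Iglc1 for 33 over 30 weeks (0.27 over all, -0.22 within Ms4a1-positive cells). The cause was not tested, beyond the change of cells that each setting makes. Female cells alone gave log2 ratios for P301S hom over neg of -1.99 for Ighm, -1.75 for Iglc1, 1.59 for Igha and 0.32 for Igkc. Male cells of CD8 KO over male cells of 33 weeks (71 and 31 cells) had ratios of 0.465 for Ighm, 0.126 for Ighd, 0.226 for Igkc and 0.214 for Iglc1. Age differs there as well as the CD8 label, at 30 against 33 weeks. Over both sexes, 24 of 105 gated cells of CD8 KO were macrophage-like, against 8 of 176 at 33 weeks. The part of age and of these cells was not tested. Depth limits these values to 27 antibody-secreting cells and, in CD8 KO, 5 precursor cells.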

Other observations

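Variable genes were read in the antibody-secreting cells. All 27 cells had a leading kappa variable gene, and these were 22 different genes. A leading heavy-chain variable gene was found in 21 cells, from 1 to 5 UMIs each, and 17 different genes led. In P301S neg, 2 Ighm cells shared both, Ighv11-2 with Igkv14-126. That pairing is known from B-1 cells that bind phosphatidylcholine. The 2 cells had 3 UMIs of Ighv11-2 each and 10 and 12 UMIs of Igkv14-126. The first carried female and the second male transcripts, so they came from different mice. No other pair of leading variable genes was shared by 2 cells. Igkv19-93 led in 2 other cells of P301S neg, Igkv12-46 in 2 cells of 33 weeks, and Igkv4-55 and Igkv6-15 each in 2 cells of different libraries.

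Among the kappa-using antibody-secreting cells, 3 had 100 or more lambda UMIs. An Ighm cell of P301S neg had 809 Iglc3 UMIs beside 7079 of Igkc, and an Ighm cell of P301S hom at 30 weeks had 1738 Iglc3 beside 12321 Igkc UMIs. The third was an Ighg2b cell of P301S hom at 30 weeks with 130 Iglc2 and 54 Iglc1 UMIs beside 14709 of Igkc. Iglc1 in the first 2 cells was 39 and 5 UMIs. These cells were chosen after their values were seen.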
